A study of Mus musculus with 16 samples.

Results

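The motile cilia and ependymal genes described here are 34 genes, chosen by name as known components of the motile cilium or markers of ependymal cells, of 19938 genes measured in all. Each is represented by its brightest probe set, the group of oligonucleotides on the array that reports on 1 gene, and all 34 were measured. No measured value entered the choice of genes, although earlier results of these data were known when the list was drawn up. Only 3 of them, Cfap54, Dnah12 and Dnah6, had several probe sets.

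The study hybridised RNA to 16 Affymetrix arrays of 1 colour, 8 from the subependymal zone (SEZ), the stem cell niche beside the lateral ventricle, and 8 from the core of the olfactory bulb (OB). In each tissue 3 arrays came from GlastCreERT2/Brg1fl/fl mice (Brg1 cKO) and 5 from controls, which were GlastCreERT2/Brg1fl/+ apart from SEZ control replicate 5, labelled GlastCreERT2/Brg1+/+. Every mouse thus carried GlastCreERT2, a tamoxifen-dependent recombinase made in astroglia and neural stem cells, and the controls other than that replicate had 1 floxed copy of Brg1. Mice were 2.5 months old, on a mixed C57BL/6 and CD1 background, of undetermined sex, kept free of specified pathogens, and listed with no treatment. The sources used here do not say when recombination was induced or in what share of ependymal cells. The labels call the samples biological replicates but name no animal. The p-values thus set differences between groups against the spread between these samples within groups. Each description joins a genotype code and number to a tissue, which may mark 1 animal sampled in both tissues, but no label says so, and whether the tissues are paired is unknown.

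Multiciliated ependymal cells line the ventricles and move cerebrospinal fluid with bundles of beating cilia. The core of such a cilium, the axoneme, is a ring of doublet microtubules around a central pair. Dynein arms on the doublets make the force, radial spokes and the central apparatus regulate it, and nexin links hold the doublets together. The programme is switched on by the transcription factors FOXJ1, a forkhead protein, and RFX2 and RFX3, which bind a DNA element called the X-box. In rodents the ventricle of the bulb closes after birth, whereas the SEZ lies directly under the ependymal layer.

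Array medians lay between 7.45 and 7.65 on the log2 scale, and the highest correlation between 2 arrays was 0.995. The SEZ arrays held striatal tissue as well: the dopamine receptor gene Drd2 ranged from 12.98 to 13.5 in them and from 7.76 to 8.58 in the bulb. Smarca4, the gene for BRG1, read 10.62 to 10.78 in all SEZ arrays and 10.95 to 11.09 in all OB arrays with the genotypes overlapping, but its probe set is not resolved to the deleted part, so this checks nothing. In cKO replicate 3 of both tissues, Slc1a3, the gene at the Glast locus, read 8.16 and 8.85, below every other array. The files hold no detection call, so 202 genes of keratin-associated proteins, vomeronasal receptors and defensins, which brain should not express, served as a rough reference. Their medians were 5.03 to 5.07, and their 95th percentile lay between 7.21 and 7.35 in the 4 groups. Probe sets differ in brightness, so a gene under that percentile may still be expressed, and a difference that starts from there has a size that background signal can compress.

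The promoters of the genes are shown first, since the regulators of the list are transcription factors. The RefSeq promoter table (assembly GRCm38.p6, 250 bases before to 50 after each start) held 35 promoters of 29 of the 34 genes. Foxj1, Rsph1, Rsph4a, Cfap54 and Rarres2 had no entry. Both strands were searched for the X-box half-site GTTGCC, which the opposite strand shows as GGCAAC, and for the forkhead core TGTTTA, which the opposite strand shows as TAAACA. The X-box half-site was found in 14 of 29 genes (48.3%), against 14.1% of the 27025 genes in the table. The 12 genes in which it lay wholly before the start are printed here, because the half-site is part of the X-box that RFX factors bind. Sequences run along the gene's own strand, 5′ to 3′, and capitals mark the half-site and, where present, a second half-site facing it across 0 to 3 bases with at most 1 mismatch.
Ccdc153, chr9:44240513-44240542 (+): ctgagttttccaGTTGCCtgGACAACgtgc
Cfap44, chr16:44394768-44394797 (+): ggacGTTGCTatGGCAACcgcagtaaacgg
Dynlrb2, chr8:116504952-116504981 (+): acttcctgcctgGTTGCCtAGCAACggggg
Enkur, chr2:21205382-21205411 (-): gataaaagccagGTTGCCccgtctcctagc
Fam183b, chr11:58801961-58801988 (-): agaggaacatccGTTGCCtGGAAACtgt
Hydin, chr8:110266952-110266976 (+): tgcgGTTGCTgtGGCAACagatggt
Kif9, chr9:110476955-110476984 (+): tgcaggcttcctGTTGCCatGGCGACtgtg
Lrrc23, chr6:124779749-124779778 (-): cgtcccgcccctGTTGCCataacaacaata
Rfx2, chr17:56831107-56831136 (-): agcttggtaaccGTTGCCgggCGCAACgcc
Sntn, chr14:13670798-13670827 (+): tgtcattattcaGTTGCCatggaatgaatg
Spag6, chr2:18698973-18699002 (+): cgattccgactgGTTGCCcaggagtgtggg
Tekt1, chr11:72361883-72361909 (-): tgcgtccgtccgGTTGCCatagagacc

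In 10 of these 12 genes the half-site lay within 75 bases of the start. The second half-site was present in 7 of 29 genes (24.1%), Ccdc153, Cfap44, Dynlrb2, Fam183b, Hydin, Kif9 and Rfx2, against 1.38% of all genes. The mismatch was allowed after the windows had been seen. With the strict pair, GTTNCC then 0 to 3 bases then GGNAAC, the count was 1 of 29, Fam183b (3.45% against 0.936%). The windows of Cfap44, Fam183b, Hydin, Kif9, Lrrc23, Spag6 and Tekt1 lay before the tabulated start but inside the span that RefSeq gives the gene, which includes longer transcripts.

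The forkhead core was found in 9 of 29 genes (31.0%), against 15.1% of all genes: Ak7, Dnah11, Dnah12, Dnah5, Enkur, Iqub, Sntn, Spag17 and Tmem212. The sites before the start of Ak7, Sntn and Tmem212 are printed because these genes had the largest tissue differences among the 8 of them that fell, with capitals marking the core.
Ak7, chr12:105705839-105705868 (+): cagtagagaaatTGTTTAcccaagcagagc
Sntn, chr14:13670629-13670658 (+): tagccattccagTAAACAtactgagactaa
Tmem212, chr3:27896402-27896431 (-): ctaagaaacttgTGTTTAtagaggcctggc

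The window of Ak7 also lay inside the gene's span. A match describes these letters only and says nothing of binding.

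Nearly all of the cilia genes were lower in the bulb core than in the SEZ. In controls, 31 of 34 fell and 2, Dnah11 and Spag6, rose, with a median difference of -0.89 on the log2 scale. Rsph9 did not pass the test. The largest falls were those of the inner dynein arm gene Dnah6 (-2.61), the radial spoke gene Rsph4a (-2.45), Meig1 (-2.08) and the adenylate kinase gene Ak7 (-2.07). The test was limma's moderated test on 5 against 5 arrays within a fit of all 16, with the Benjamini-Hochberg adjustment taken over the whole table and a threshold of 0.05. Over all 19938 genes, 14.9% were called lower and 12.6% higher, and the median difference was 0.003. In cKO mice (3 against 3 arrays) 28 of 34 fell and the same 2 genes rose, with a median of -0.97, against 13.1% called lower, 10% called higher and a median of -0.016 over all genes. Differences of over 2-fold downward were called for 13 of 34 genes in controls (2.54% of all genes) and for 17 in cKO (2.77%). In controls the 4 genes named above fell by over 4-fold (0.537% of all genes), and in cKO 4 genes did (0.602%). Because whole pieces of tissue were used, fewer ciliated cells and less RNA per cell cannot be told apart.

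**Figure D1:**
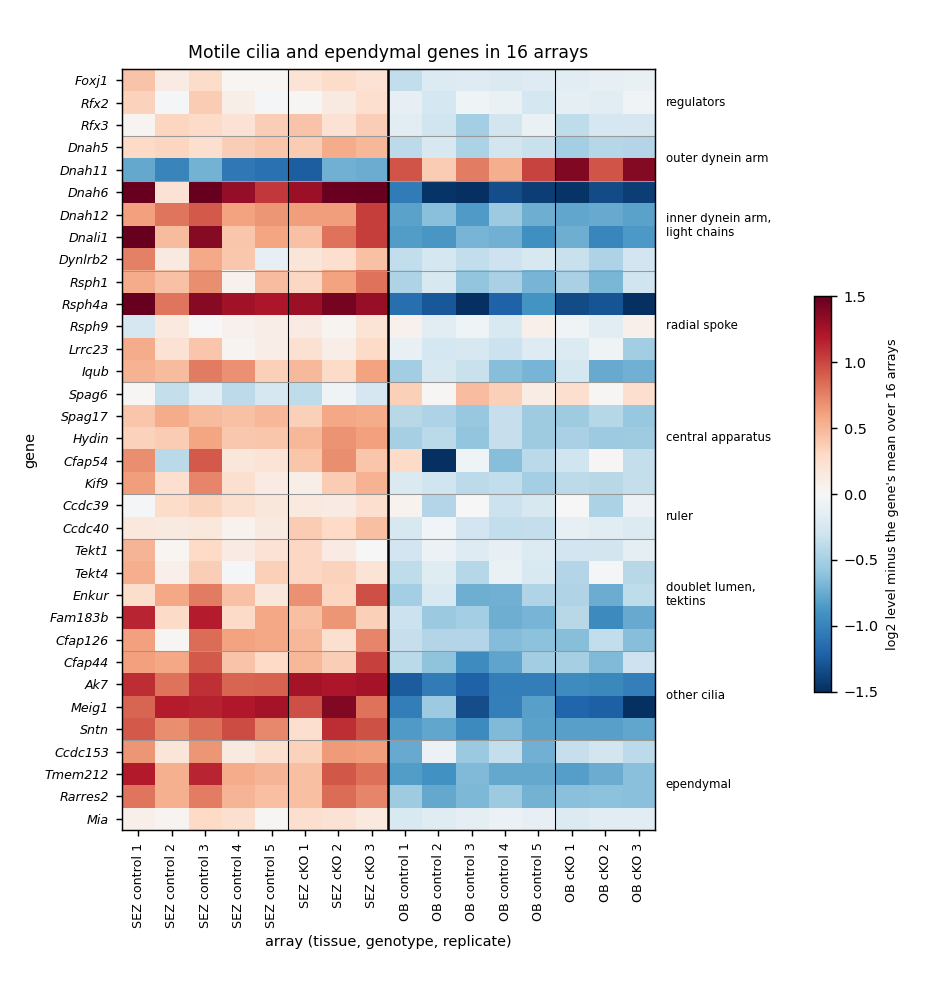
Log2 level of each of the 34 genes (rows, ordered by role) on each of the 16 arrays (columns), as the difference from the gene's mean over all arrays, with colours saturating at 1.5 either way. The rows of Dnah11 and Spag6 run against the others, and Rsph9 shows little difference between tissues.

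**Figure D2:**
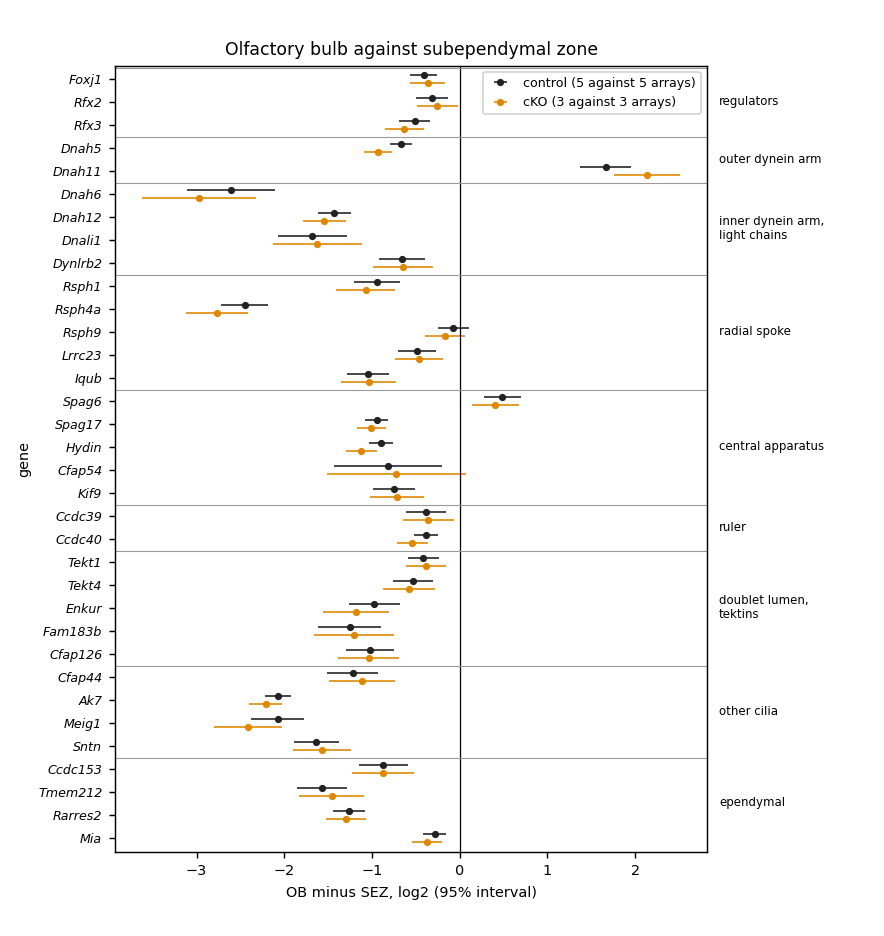
Difference OB minus SEZ of each gene on the log2 scale (x axis) with its 95% interval, in controls (5 against 5 arrays) and in cKO (3 against 3 arrays). Controls run from -2.61 for Dnah6 to 1.66 for Dnah11, and cKO estimates lie close to those of controls.

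Among the regulators, all 3 fell in the bulb of controls, each by less than the list's median. Foxj1, the forkhead activator of the motile cilia programme, read 8.50, 8.19, 8.35, 8.10 and 8.10 in SEZ control replicates 1 to 5 and 7.70, 7.87, 7.88, 7.85 and 7.88 in OB control replicates 1 to 5. In cKO it read 8.28, 8.35 and 8.29 in the SEZ and 7.90, 7.95 and 7.96 in the bulb. No bulb array reached any SEZ array, yet the difference was small, -0.41 ± 0.07 (SE; adjusted p = 0.000333) in controls and -0.37 in cKO (adjusted p = 0.00913). Foxj1 lay above the reference for silent genes in all 4 groups, and its SEZ level was 1.33-fold its bulb level in controls. Rfx3, which ranged from 10.14 to 10.52 in the SEZ (median 10.4, 8 arrays) and from 9.58 to 9.99 in the bulb (median 9.83), fell by 0.52 in controls (adjusted p = 9.53e-05). Rfx2 fell by 0.32 in controls (adjusted p = 0.00936), and in cKO its estimate of -0.26 did not pass (adjusted p = 0.118; 0.0482 with a block for each replicate number). Both RFX genes are used by many cell types, and their bulb levels also lay above the reference.

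The 2 heavy chains of the outer dynein arm, the motor that sets beat frequency, moved in opposite directions. Dnah5 ranged from 7.39 to 7.70 in the SEZ (median 7.52) and from 6.64 to 6.91 in the bulb (median 6.74), a fall of 0.67 in controls. Dnah11 read 7.51, 7.28, 7.56, 7.2 and 7.15 in the SEZ of control replicates 1 to 5, and 9.21, 8.65, 9.04, 8.82 and 9.29 in the bulb. In cKO it read 7.04, 7.55 and 7.53 in the SEZ and 9.66, 9.21 and 9.65 in the bulb. Every bulb array lay above every SEZ array, the reverse of Dnah5. The rise was 1.66 ± 0.14 (SE; adjusted p = 5.48e-08) in controls and 2.13 in cKO (adjusted p = 9.8e-08), and Dnah11 alone of the 34 genes was higher in all 8 bulb arrays than in all 8 SEZ arrays (7.17% of all genes). Its SEZ level in controls, 7.34, lay only just above the reference percentile of 7.25.

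All 4 genes of the inner dynein arms and light chains fell in both genotypes. Dnah6, an inner arm heavy chain, read 9.35, 7.84, 9.59, 8.94 and 8.69 in the SEZ of controls and 8.91, 9.11 and 9.58 in the SEZ of cKO. In the bulb it read 6.58, 6.16, 6.10, 6.30 and 6.22 in controls and 6.16, 6.28 and 6.22 in cKO, so that even the low SEZ control replicate 2 stood above all bulb arrays. Its 3 probe sets gave differences of -2.61, -2.50 and -1.68. Dnah12, another inner arm heavy chain, fell by 1.43 in controls (its dimmer probe set gave -0.84), and Dnali1, a light intermediate chain of the inner arm, by 1.68. Dynlrb2, a roadblock-type light chain, ranged from 6.39 to 7.27 in the SEZ and from 6.05 to 6.27 in the bulb. It fell by 0.66 in controls, with all group means under the reference percentile. Its close relative Dynlrb1, which serves cytoplasmic dynein in most cells, differed by 0.06 (95% interval -0.07 to 0.19, adjusted p = 0.564).

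Of the 5 radial spoke genes, 4 fell and Rsph9 did not pass. Rsph4a, a spoke head protein, read 9.22, 8.42, 8.98, 8.88 and 8.83 in the SEZ of controls and 8.90, 9.05 and 8.92 in the SEZ of cKO. In the bulb it read 6.48, 6.34, 6.12, 6.40 and 6.72 in controls and 6.27, 6.32 and 6.00 in cKO. The tissues were separated by more than 1 log2 unit at their nearest arrays, and both bulb means lay under the reference percentile. Rsph9, another spoke head protein, ranged from 7.80 to 8.26 in the SEZ (median 8.14) and from 7.83 to 8.13 in the bulb (median 7.99), and the arrays overlapped. Its difference was -0.08 in controls (95% interval -0.25 to 0.10, adjusted p = 0.59) and -0.17 in cKO (adjusted p = 0.306), so a fall as large as that of Rsph4a is outside both intervals. Rsph1, also of the spoke head, fell by 0.94, Iqub by 1.05 and Lrrc23 by 0.49 in controls, the latter 2 being further proteins of the spokes.

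In the central apparatus, which surrounds the central pair, Spag17 fell by 0.94, Hydin by 0.90 and the kinesin gene Kif9 by 0.75 in controls, each with no overlap between the SEZ and bulb arrays. Spag17 varied little within a tissue, from 6.54 to 6.77 in the SEZ and from 5.62 to 5.84 in the bulb, but all its group means lay under the reference percentile. Spag6 went the other way: it read 7.11, 6.73, 6.92, 6.69 and 6.84 in the SEZ of controls and 7.44, 7.11, 7.55, 7.44 and 7.2 in the bulb. Its highest SEZ array equalled its lowest bulb array, and the rise was 0.49 ± 0.10 (SE; adjusted p = 0.00117) in controls and 0.41 in cKO (adjusted p = 0.0299). The near-identical gene Spag6l, measured by its own probe set, fell by 1.16 (adjusted p = 4.14e-09), and cross-hybridisation between the copies was not tested. In SEZ controls Spag6 lay under the reference percentile. The cKO rise of Spag6 was lost when any 1 of 4 arrays was left out, with adjusted p = 0.105 without OB cKO replicate 1, 0.102 without OB cKO replicate 3, 0.133 without SEZ cKO replicate 1 and 0.0731 without SEZ cKO replicate 3.

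Cfap54, also of the central apparatus, was the least certain of the falls. It read 10.90, 9.80, 11.13, 10.38 and 10.41 in the SEZ of controls and 10.49, 8.55, 10.14, 9.56 and 9.80 in the bulb, and the ranges overlapped. Its difference of -0.82 passed narrowly in controls (adjusted p = 0.0455) and did not pass in cKO (-0.72, adjusted p = 0.196). Without OB control replicate 2, its lowest array, the difference was -0.53 (adjusted p = 0.109), and without SEZ control replicate 3, its highest, -0.67 (adjusted p = 0.115). The call was also lost without any 1 of 10 other arrays, with adjusted p from 0.0543 to 0.0993. The second probe set gave -0.38.

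The ruler proteins CCDC39 and CCDC40, which set the spacing of inner arms and spokes along the doublet, each showed a difference of -0.39 in controls (adjusted p = 0.0114 and 0.00016). Ccdc40 also fell in cKO (-0.54), whereas Ccdc39 did not pass there (-0.36, adjusted p = 0.0772; 0.0483 with a block for each replicate number). Ccdc39 arrays of the tissues overlapped, from 8.28 to 8.64 in the SEZ and from 7.83 to 8.36 in the bulb. All 5 genes of the doublet lumen and the tektin filaments fell in both genotypes. Fam183b (-1.26), Cfap126, also called Flattop (-1.03), and Enkur (-0.98) fell the most of these in controls, and the tektin genes Tekt4 (-0.53) and Tekt1 (-0.41) the least. For Enkur and Tekt4 all group means lay under the reference percentile. Fam183b also showed a wide spread within the SEZ, with 8.92 and 8.95 in control replicates 1 and 3 and 8.06 to 8.44 in the other 6 arrays.

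The 4 remaining ciliary genes all fell by over 2-fold. Ak7, an adenylate kinase of the axoneme, had the smallest adjusted p of the list (4.75e-13 in controls) and stood from 8.11 to 8.54 in the SEZ and from 6.04 to 6.35 in the bulb. Meig1, known for its part in spermatogenesis, ranged from 8.32 to 8.90 in the SEZ (median 8.68) and from 5.85 to 6.97 in the bulb (median 6.40). Sntn, which encodes sentan of the ciliary tip, fell by 1.64, and Cfap44, an axonemal protein, by 1.22 in controls. For Ak7, Meig1, Sntn and Cfap44 the bulb means of both genotypes lay under the reference percentile.

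The 4 genes listed as ependymal markers, apart from the axonemal roles above, fell too. Tmem212 fell by 1.58, Ccdc153 by 0.87 and Rarres2, which encodes the chemoattractant chemerin, by 1.26 in controls. Rarres2 varied little within a tissue: it ranged from 8.55 to 8.94 in the SEZ (median 8.74) and from 7.34 to 7.57 in the bulb (median 7.48), a 2.40-fold difference with both tissues above the reference. Mia, a small secreted protein first known from melanoma, ranged from 5.58 to 5.86 in the SEZ and from 5.33 to 5.47 in the bulb. Its arrays did not overlap between tissues (-0.28, adjusted p = 0.00198), but its level was under the reference in all groups.

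**Figure D3:**
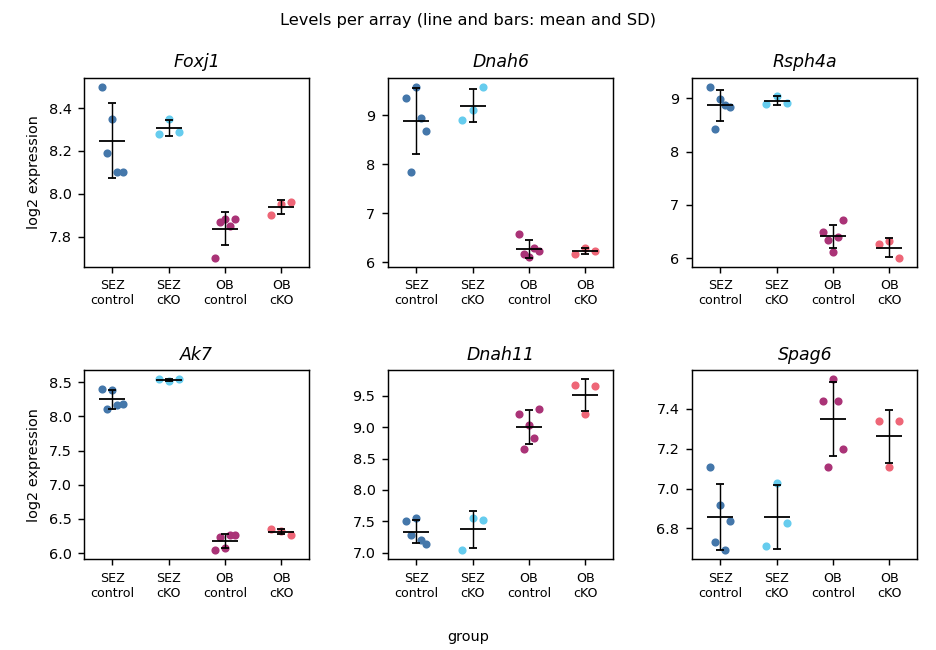
Log2 level of 6 genes on each array (points) with the group mean and SD (line and bars), for SEZ control (5 arrays), SEZ cKO (3), OB control (5) and OB cKO (3). Each panel has its own y axis. Foxj1, Dnah6, Rsph4a and Ak7 are lower in every bulb array, Dnah11 is higher in every bulb array, and the Spag6 ranges touch at 7.11.

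Taking all 8 bulb arrays against all 8 SEZ arrays, 29 of 34 genes lay wholly lower in the bulb, 1 wholly higher, and Rsph9, Spag6, Cfap54 and Ccdc39 overlapped, against 9.86% wholly lower and 7.17% wholly higher over all genes. In OB controls 21 of 34 gene means were under the reference percentile, compared with 6 in SEZ controls. Dynlrb2, Spag17, Tekt4, Enkur and Mia were under it in both control tissues, and Spag6 in the SEZ only. In both control tissues 12 genes were above it: Foxj1, Rfx2, Rfx3, Dnah11, Rsph9, Cfap54, Kif9, Ccdc39, Tekt1, Fam183b, Ccdc153 and Rarres2. Grouped by the promoter matches above, the median difference was -0.71 for the 14 genes with the half-site (-1.64 to 0.49) and -1.03 for the 15 without (-2.61 to 1.66). It was -1.05 for the 9 genes with the forkhead core (-2.07 to 1.66) and -0.60 for the 20 without (-2.61 to 0.49). The ranges overlapped widely, and whether the groups differ was not tested.

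Other genes of the motile cilium were counted by role, and the lists differed in how many members fell. Over all genes, 14.9% were called lower and 12.6% higher in controls, and 13.1% and 10% in cKO. Of 100 further motile cilia and ependymal genes measured, 63 fell and 4 rose in the bulb of controls (median -0.39), and 51 fell and 3 rose in cKO (median -0.45). Whether they differ from the 34 genes was not tested. Other dynein arm genes fell in 8 of 11 (outer, such as Dnah9, -0.85) and 7 of 9 (inner, such as Wdr63, -1.08), and arm assembly factors in 4 of 9, led by Lrrc6 (-1.35) and Zmynd10 (-0.94). Spoke genes fell in 6 of 7 (Cfap61, -1.03), nexin link genes in 6 of 9 (Fbxl13, -1.61) and lumen genes in 9 of 15 (Cfap161, -1.26). In the central apparatus 7 of 10 fell, led by Cfap65 (-1.48), and Cfap69 rose (0.64). Fam216b (-2.35) had the largest fall among 9 other cilia genes, of which 7 fell. Among 11 other regulators 5 fell, with Six3 (-1.86) and Rfx4 (-0.95) the largest, and among 10 other ependymal genes 4 fell, such as Odf3b (-1.16), and 3 rose, such as Trpm3 (0.99).

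Cilia genes that non-motile cilia use as well were counted in the same way, against 14.9% of all genes called lower and 12.6% higher. Of 27 genes of intraflagellar transport, the traffic that builds all cilia, 2 fell and 4 rose in controls (median 0.00), with the kinesin gene Kif17 falling most (-1.56). Of 24 primary cilium and transition zone genes, 6 fell and 3 rose (median -0.06), among them Bbs9 (-1.01), Adcy3 (-0.92) and the receptor gene Sstr3 (1.29). The difference between these lists and the 34 genes was not tested.

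Markers of other cells were counted too, against 14.9% of all genes called lower and 12.6% higher in controls (13.1% lower in cKO). All 10 striatal neuron genes and all 11 myelin genes measured were lower in the bulb of controls, and all 10 bulb neuron genes were higher. All 11 cell cycle genes were lower as well (median -0.87; 8 of 11 in cKO, median -0.47), and of 12 neuroblast genes 10 were higher and 1 lower (median 1.10). The mean level of the cell cycle list was 7.46 to 7.70 in SEZ controls and 6.58 to 6.66 in OB controls, and that of the neuroblast list 9.56 to 9.89 and 10.68 to 10.94. The mean level of the striatal list was 12.52 to 12.76 in SEZ controls and 8.80 to 8.94 in OB controls, and that of the myelin list 10.88 to 11.64 and 9.96 to 10.23. Of 9 microglia genes 5 were lower, of 10 endothelial and mural genes 5 were lower, and of 13 astrocyte and stem cell genes 3 were lower and 1 higher. Of 14 choroid plexus genes, which mark the other ciliated epithelium of the ventricle, 4 were lower and 2 higher, and the mean of the list was 6.69 to 7.02 in SEZ controls and 6.38 to 6.66 in OB controls. In both tissues that mean lay under the reference percentile. The list's defining gene Ttr ranged from 7.46 to 10.83 in SEZ controls and from 6.76 to 7.58 in OB controls. Of 7 olfactory epithelium genes, 1 was lower and 2 higher, and Omp, which marks olfactory sensory neurons, ranged from 7.36 to 10.73 in OB controls. Whether the few calls among astrocyte, choroid plexus and olfactory epithelium genes exceed the shares over all genes was not tested. Nor was the part of any of the listed cells in the cilia gene differences.

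Between Brg1 cKO and control mice no gene of the list passed the test, in either tissue. In the SEZ 0 of 34 passed (0% of all genes were called in either direction by limma), the median difference cKO minus control was 0.04 (0.004 over all genes), and estimates ran from -0.20 (Fam183b) to 0.32 (Dnah6). In the bulb 0 of 34 passed (0.0451% of all genes called lower and 0% higher), the median was -0.03 and estimates ran from -0.41 (Meig1) to 0.51 (Dnah11). For the difference between the effects of the tissues, again 0 of 34 passed, with a median of 0.02 (0.00502% of all genes called higher and 0% lower). A p that misses the threshold does not show that groups are alike, and the intervals bound the differences. The 95% interval lay within 0.5 log2 units of 0 for 29 of 34 genes in the SEZ (93.5% of all genes) and for 26 of 34 in the bulb (90.6%). Dnah6, Dnali1, Cfap54, Enkur and Fam183b had wider bounds in the SEZ, for Dnah6 from -0.26 to 0.90.

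**Figure D4:**
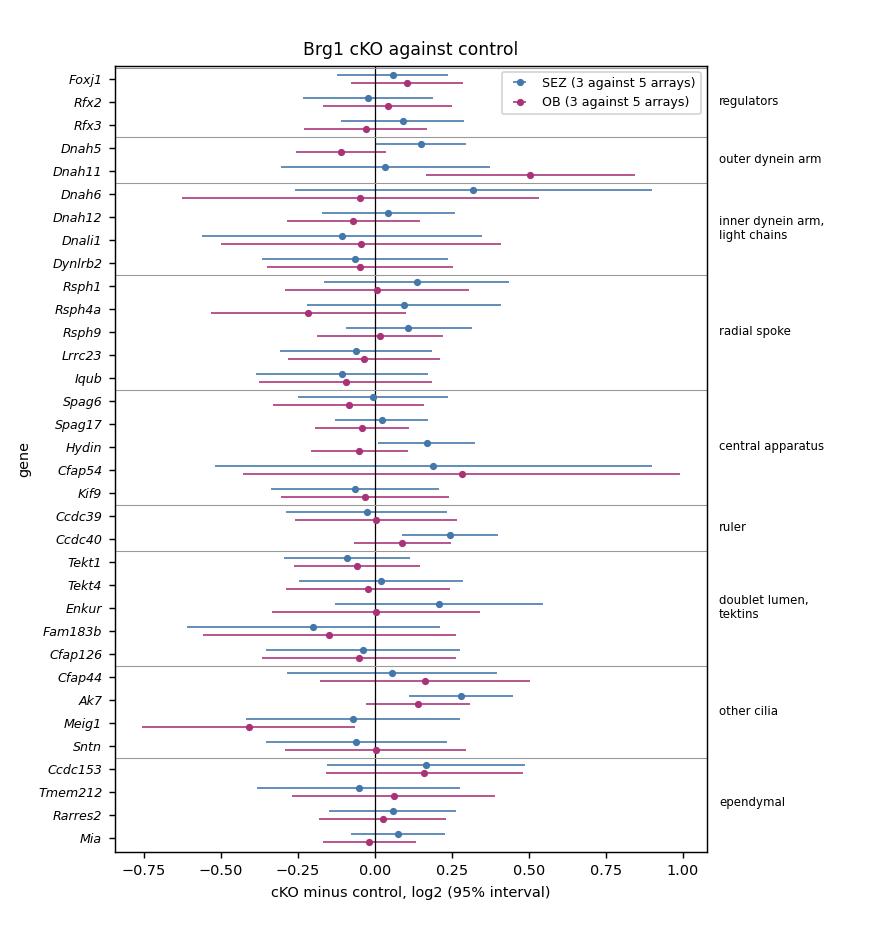
Difference cKO minus control of each gene on the log2 scale (x axis) with its 95% interval, in the SEZ and in the bulb (3 against 5 arrays each). The points scatter around 0, from -0.20 to 0.32 in the SEZ and from -0.41 to 0.51 in the bulb, and no gene passed the adjusted test.

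At an unadjusted p under 0.05, 4 genes were higher in the SEZ of cKO (11.8%, against 1.46% of all genes) and 0 lower (1.01% of all genes). They were Ak7 (0.28, 95% interval 0.11 to 0.45), Ccdc40 (0.24), Hydin (0.17) and Dnah5 (0.15), all with an adjusted p of 1 by limma. Many genes of the list stood high or low on the same SEZ arrays, as described below, so they are not independent. Whether the share of 11.8% exceeds that over all genes was not tested. Exact two-sided permutation tests over the arrays gave unadjusted p = 0.0357 for Ak7, 0.0179 for Ccdc40 (the smallest that 3 against 5 arrays allow), 0.0714 for Hydin and 0.0536 for Dnah5. In the bulb Dnah11 was higher (0.51; 0.868% of all genes) and Meig1 lower (-0.41; 2.64% of all genes), also with an adjusted p of 1. The exact permutation p was 0.0714 for Dnah11 and 0.107 for Meig1. For the difference between tissues Dnah5 alone had an unadjusted p under 0.05 (0.26, adjusted p of 1; 0.973% of all genes in that direction).

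Ak7 is singled out here after its values were seen. It read 8.54, 8.51 and 8.54 in the SEZ of cKO and 8.40, 8.11, 8.39, 8.17 and 8.18 in controls. In the bulb it read 6.35, 6.33 and 6.27 in cKO and 6.04, 6.24, 6.08, 6.26 and 6.26 in controls. In both tissues every cKO array lay above every control, narrowly so in the bulb, which held for 2 of the 19938 genes (0.01%), and 12 genes (0.0602%) lay wholly lower in both. The bulb means, 6.17 and 6.32, were both under the reference percentile, and the bulb difference of 0.14 had a 95% interval from -0.03 to 0.31. Ccdc40 was the other gene of the list with no overlap in the SEZ (0.943% of all genes), at 7.80, 7.71 and 7.87 in cKO against 7.58, 7.55, 7.58, 7.47 and 7.55 in controls. In the bulb the other was Foxj1 (0.958% of all genes), with 7.90 to 7.96 in cKO and 7.70 to 7.88 in controls, a difference of 0.10. No gene of the list was wholly lower in cKO in either tissue (1.05% and 1.57% of all genes).

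The further cilia genes were compared by genotype too. Of the 100 further motile cilia and ependymal genes, 0 passed in the SEZ (median 0.02), where 0% of all genes were called. In the bulb 1 passed, Cd24a (-1.5, adjusted p = 0.00525 by limma), where 0.0451% of all genes were called lower and 0% higher. Cd24a encodes a surface protein of ependymal cells that young neurons also carry in quantity. In the bulb, 4 of 12 neuroblast genes, Cd24a included, were called lower in cKO, against the same 0.0451% of all genes. In the SEZ all 11 cell cycle genes were below 0 (median -0.44) with none passing, and 48% of all genes were below 0.

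Within the SEZ some arrays stood high for many of the genes at once and others low, in both genotypes. Control replicates 1 and 3 were each the highest of the 8 SEZ arrays for 10 of 34 genes, and cKO replicates 2 and 3 for 6 and 7. Control replicates 2, 4 and 5 were the highest for 0 genes and the lowest for 6, 9 and 6. The median, over the 34 genes, of an array's deviation from the gene's median over the 8 SEZ arrays was 0.10, -0.10, 0.15, -0.08 and -0.12 in control replicates 1 to 5 and -0.05, 0.09 and 0.11 in cKO replicates 1 to 3. Arrays of both genotypes thus stood on either side. In the bulb the same measure stayed between -0.05 and 0.02.

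**Figure D5:**
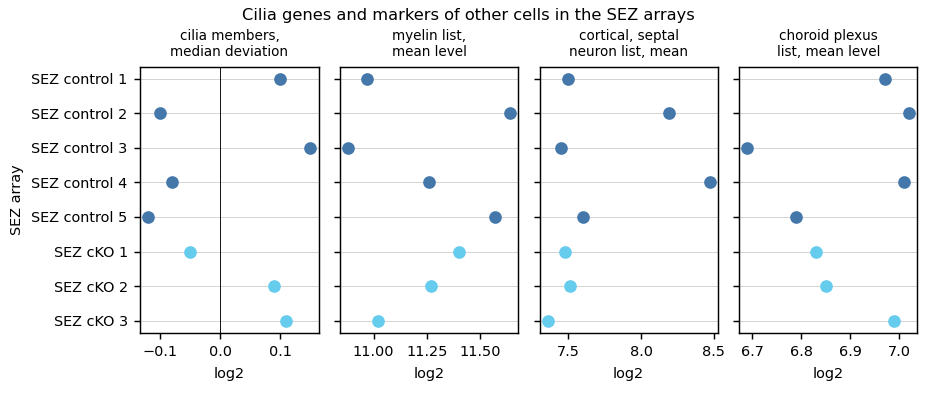
For each SEZ array (rows; 5 control, 3 cKO): the median deviation of the 34 genes, and the mean levels of the myelin, cortical and septal neuron, and choroid plexus lists, all on the log2 scale. Control replicates 1 and 3 and cKO replicate 3 combine high cilia genes with the 3 lowest myelin means. However, cKO replicate 2, also high for cilia genes (0.09), has a myelin mean of 11.27, against 11.26 in control replicate 4 (-0.08). Control replicates 2 and 4 have the highest cortical means. The choroid plexus means lie between 6.69 and 7.02, under the reference percentile for silent genes.

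Markers of neighbouring tissue and of niche cells differed between the same arrays. The mean of the myelin list was 10.97 and 10.88 in SEZ control replicates 1 and 3, and 11.64, 11.26 and 11.57 in replicates 2, 4 and 5. In cKO it was 11.40, 11.27 and 11.02. Striatal list means were 12.76 in control replicates 1 and 3, 12.77 in cKO replicate 3 and 12.52 to 12.68 in the other SEZ arrays. The mean of 7 genes of cortical and septal neurons was 8.19 and 8.47 in control replicates 2 and 4 and 7.36 to 7.6 in the other 6 arrays. The mean of the choroid plexus list moved little, at 6.97, 7.02, 6.69, 7.01 and 6.79 in control replicates 1 to 5 and 6.83, 6.85 and 6.99 in cKO. These means lay under the reference percentile (7.25 in SEZ controls, 7.35 in SEZ cKO), so they say little of the choroid plexus content of an array. Single genes of that list went different ways. Ttr was 10.83 and 10.64 in control replicates 2 and 4 and 10.30 in cKO replicate 3, with 7.46 to 9.20 elsewhere. Kcnj13 was also highest in control replicates 2 and 4 (6.96 and 7.10, against 6.36 to 6.86 elsewhere), though under the reference percentile. Folr1, which varied little, was lowest in control replicates 2 and 4 (7.37 and 7.35) and read 7.39 to 7.67 elsewhere. Without control replicates 2 and 4 the median genotype difference of the cilia genes in the SEZ was -0.02 and 0 passed, and in controls 32 genes were still called between tissues, with the call of Ccdc39 lost (-0.35, adjusted p = 0.0703). The part of the other cells in these values was not tested.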

How the data were processed

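Biotin-labelled total RNA was hybridised to 16 arrays, and the authors deposited 1 log2 value for each probe set and array. The submitters' processing notes name RMA, which subtracts background, equalises the distributions of the arrays and combines probes, and Affymetrix Expression Console 1.2. No genome build is named for the probe sets. The annotation gave a single symbol to 21789 of 35556 probe sets, several to 1621 and none to 12146, and only the first were used. A RefSeq gene table of GRCm38.p6 held 21698 of these, and 0 symbols changed. The brightest probe set stood for each of the 999 genes with several, and 19938 genes were tested.

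One limma model (version 3.58.1, lmFit and eBayes, in R 4.3.3) covered the 16 arrays, with 4 groups of tissue by genotype, no covariate, 12 residual and 4.34 prior degrees of freedom. Tests were two-sided, and Benjamini-Hochberg adjustment ran over all genes. Deviations of same-numbered SEZ and OB arrays correlated over 0.1 in 5 of 5 control pairs (0.17 to 0.57). In cKO this held for 2 of 3 pairs (-0.06 to 0.39). Same-numbered cKO and control arrays, which differ in genotype, also correlated over 0.1 in 5 of 6 pairs (-0.41 to 0.61). These correlations therefore cannot tell whether numbers pair the tissues. Slc1a3 was low in both tissues of cKO replicate 3 alone (8.16 and 8.85, against 11.16 or more in every other array). Control replicate 5, by contrast, has a different Brg1 label in each tissue. Whether same-numbered arrays share an animal was not tested. The files hold no batch label, and no 2 arrays were duplicates. The number of arrays limits the precision.

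The members and lists were chosen with earlier results of these data known. All 34 genes are described, with up to 4 others per list, taken by the largest estimate among those called. Dynlrb1 was named as the relative of Dynlrb2, and Stoml3 was named after its values were seen. The single markers given by array (Ttr, Kcnj13, Folr1, Omp, Drd2 and Slc1a3) were picked from their lists after their values were seen. The fit was also run on simulated data for the 19938 genes, with noise independent between genes. In each comparison 100 genes were seeded with a log2 difference of 0.5 and 100 with 1. For OB against SEZ in controls 67 and 98 of these were called (7 false calls). For cKO against control in the SEZ 61 and 93 were called (10 false calls). Seeding many differences eases the Benjamini-Hochberg threshold. In the real SEZ comparison 0% of genes were called, so these counts can overstate what it could detect. For each comparison 29 alternatives were run: other handling of several probe sets, a filter on low values, other scaling, array weights, a variance trend, replicate blocks, a looser threshold, and arrays left out. A comparison of the DYNLRB1 and DYNLRB2 proteins was planned and not made.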

Additional observations from a re-analysis of the deposited data

Results flagged for a closer look

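In 70 groups of 5 control arrays (each gene, and the median over the genes, in each tissue) the extreme array was set against the rest, and 3 arrays stood apart by a gap of over 0.71 of the group's range, where chance gives about 1 in 20. Ccdc40 in SEZ control replicate 4 read 7.47, below the next array at 7.55 and the highest at 7.58 (gap 0.727). Meig1 in SEZ control replicate 1 read 8.38, against 8.66 to 8.76 in the other 4 (gap 0.761). Foxj1 in OB control replicate 1 read 7.70, against 7.85 to 7.88 in the other 4 (gap 0.806). The arrays involved differ from gene to gene.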

How the results depend on the processing

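Keeping only genes above the median level left 5 of the 34 genes, of which 5 were called between tissues in controls (4 lower, median -0.39) and 2 in cKO (median -0.36); the fewer genes come from the filter itself. Under the 12 other alternatives apart from single arrays left out, the count was 32 to 33 in controls and 25 to 32 in cKO. Leaving out 1 array in turn gave counts of 32 to 33 and medians of -0.93 to -0.83 in controls, and 28 to 30 and -1 to -0.92 in cKO. No called value changed sign. Of single genes, the calls of 2 were lost under some alternative in controls (Cfap54, Ccdc39) and of 6 in cKO (Dynlrb2, Lrrc23, Spag6, Foxj1, Tekt1, Tekt4), where Rfx2, Ccdc39 and Cfap54 were gained; the cause was not tested. For genotype, 0 genes passed under all 29 alternatives in either tissue, with medians of -0.02 to 0.12 in the SEZ and -0.07 to 0.04 in the bulb, and for the difference of effects -0.06 to 0.11. Same-numbered SEZ and OB arrays had correlated deviations over 0.1 in 7 of 8 pairs, and 4 of 8 SEZ arrays correlated best with their own number; for cKO with control arrays it was 5 of 6 pairs (-0.41 to 0.61). With a block for each replicate number, 33 genes were called in controls and 32 in cKO, and with genotype and number as a random block 33 and 31; in controls the same 33 genes were called under both, in cKO the first gained Rfx2 and Ccdc39 and the second Ccdc39, and the genotype counts stayed at 0. Levels near those of silent genes limit what can be said of 21 genes in the bulb of controls.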

Other observations

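The 3 probe sets of Dnah6 gave SEZ genotype differences of 0.32, 0.49 and 0.48 and bulb differences of -0.05, -0.02 and -0.14, and the 2 of Cfap54 gave 0.19 and 0.18 in the SEZ and 0.28 and 0.18 in the bulb. They share the same RNA, so they are no further replicates.

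Among the other cilia genes, Stoml3, which olfactory sensory neurons also make, varied most within the bulb: its mean was 10.29 ± 1.49 (SD, n = 5) in OB controls and 9.10 ± 0.65 (SD, n = 5) in SEZ controls, and the difference of 1.19 did not pass limma's test (adjusted p = 0.141). Omp ranged from 7.36 to 10.73 in the same OB arrays.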
